A study of Mus musculus with 3 samples.

Results

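The genes of sterol and fatty acid synthesis were followed in CD4 T cells, the helper lymphocytes of adaptive immunity, after culture in media that differed in nutrient content. The 35 genes were taken by symbol from a deposited table of 23282 gene rows, and each was found once in each of the 6 libraries. They comprise 18 enzymes of cholesterol synthesis, 4 genes that regulate the pathway or move sterol, 10 genes of fatty acid synthesis and, as a contrast, 3 targets of the liver X receptors (LXR). C57BL/6 mice (C57BL/6J in the methods of the study) gave the cells, from spleen and lymph nodes, and those methods describe the mice as female and 6 to 8 weeks old. All cells were cultured for 72 h with anti-CD3 and anti-CD28 antibodies, which activate T cells. Complete medium (CM) was RPMI with serum. The second medium (DM) was made from RPMI without amino acids and from serum dialyzed to remove small molecules. The third (DM+Met) was DM with 30 µM methionine added back. The study measured methionine in DM and found it reduced but still present, so the addition raised an existing level. Dialysis and the absence of amino acids came together in DM, so their parts cannot be told apart.

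Cholesterol is built from acetyl-CoA through mevalonate, isoprenoid units and squalene, and the long chains of fatty acids are built from acetyl-CoA and malonyl-CoA. The transcription factors SREBP-2 and SREBP-1, encoded by Srebf2 and Srebf1, raise the genes of both pathways when membranes are short of sterol and are held back by Insig proteins when sterol is plentiful. LXRs act on the other side of the sterol balance: they sense oxysterols and raise genes that export cholesterol. Activated T cells are known to raise lipid synthesis as they grow and divide.

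SREBPs bind sterol response elements, often beside a CCAAT box bound by NF-Y, so the promoters of the genes were read from the RefSeq table of build GRCm38.p6, as 300 bases from 250 before to 50 after the annotated start. Windows were found for 28 of the 35 genes, and the motifs TCACNCCAC, as a sterol response element, and CCAAT were searched on both strands. The 7 without a window were Fdps, Fdft1, Sqle, Stard4, Scd2, Fads1 and Abcg1. All of these but Abcg1 fell in DM, so the shares below leave out many of the genes that fell. The strict element was found in 1 of the 28, Hmgcs1 (3.57%), against 1.44% of 27025 genes with a window. The shorter CACNCCAC was found in 3 of 28 (10.7%), in Hmgcs1, Acat2 and Insig1, against 7.12%. CCAAT was found in 23 of 28 (82.1%), and in 14 of the 15 sterol synthesis genes with a window, against 41.1% of all genes. Of the genes with a window, CCAAT was found in 10 of 12 that fell in DM and in 13 of 15 that were tested and not called. Windows of 4 genes are shown, 5′ to 3′ on the strand of the gene, with each match in capitals, read on either strand: Hmgcs1 as the gene with the strict element (chr13:119690101-119690400, plus strand), Mvd (chr8:122443373-122443672, minus strand) and Cyp51 (chr5:4104648-4104947, minus strand) as enzymes with CCAAT whose level fell, chosen after their values were seen, and Abca1 (chr4:53159846-53160145, minus strand) as an LXR target with neither motif. Of the 2 LXR targets with a window, the other, Mylip, had CCAAT and is not shown. The 2 motifs did not overlap in any window shown.
Hmgcs1: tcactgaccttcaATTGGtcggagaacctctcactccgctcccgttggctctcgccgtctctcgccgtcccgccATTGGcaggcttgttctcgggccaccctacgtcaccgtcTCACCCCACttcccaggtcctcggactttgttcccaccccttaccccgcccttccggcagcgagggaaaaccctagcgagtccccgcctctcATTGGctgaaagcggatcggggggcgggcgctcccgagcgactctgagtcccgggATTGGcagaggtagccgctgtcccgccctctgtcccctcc
Mvd: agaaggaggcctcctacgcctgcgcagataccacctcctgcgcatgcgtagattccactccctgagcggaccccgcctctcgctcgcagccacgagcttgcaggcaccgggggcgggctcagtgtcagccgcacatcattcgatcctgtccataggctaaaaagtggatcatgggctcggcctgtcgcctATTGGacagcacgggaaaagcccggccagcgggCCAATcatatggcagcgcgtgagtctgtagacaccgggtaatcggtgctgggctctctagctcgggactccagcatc
Cyp51: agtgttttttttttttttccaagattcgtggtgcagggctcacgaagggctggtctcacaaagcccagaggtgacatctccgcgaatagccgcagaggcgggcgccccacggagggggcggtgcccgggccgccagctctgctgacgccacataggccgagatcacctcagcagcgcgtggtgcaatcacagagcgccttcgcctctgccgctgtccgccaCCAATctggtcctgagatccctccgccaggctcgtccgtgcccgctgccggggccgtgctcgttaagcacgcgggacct
Abca1: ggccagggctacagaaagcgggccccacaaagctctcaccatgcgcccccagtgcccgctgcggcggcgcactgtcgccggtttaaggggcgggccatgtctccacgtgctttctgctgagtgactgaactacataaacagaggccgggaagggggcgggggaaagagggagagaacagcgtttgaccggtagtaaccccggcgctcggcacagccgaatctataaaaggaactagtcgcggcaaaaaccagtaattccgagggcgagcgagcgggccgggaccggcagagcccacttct
These letters describe the windows and are not evidence of binding.

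Each medium has 2 files, and their nature is not stated in the labels. They were taken as 2 replicate libraries because the study describes its samples as biologically independent. The p-values rest on the spread between these libraries, which limma draws, for each gene, toward that of genes at a similar level. Depth was 8504742 to 12377285 reads per library. The pair of DM libraries was less alike than the others (r = 0.919 across 12770 rows, against 0.938 in CM and 0.973 in DM+Met), and both were closer to the DM+Met libraries (r = 0.925 and 0.921 for DM library 1, and 0.947 and 0.940 for DM library 2) than to each other. Of the T cell markers, Cd3d had 3704 to 5053 reads and Cd4 1584 to 3312 reads in the 6 libraries. Cd8a, a marker of CD8 T cells, was also read, with 89 to 320 reads. In such bulk RNA, fewer cells of a type and less RNA per cell cannot be told apart.

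Levels are given as CPM, the reads of a gene relative to a library size scaled by TMM (a correction for differences in library composition), and changes as the difference of mean log2(CPM + 1). The libraries are 3′-end libraries, so CPM was not divided by transcript length. A gene was called changed at a limma adjusted p below 0.05 over 12770 rows, and "fell" and "rose" are used for called genes only. Fads2 was read too little to be tested, which left 34 genes. The plot of levels by library shows all 35.

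**Figure D1:**
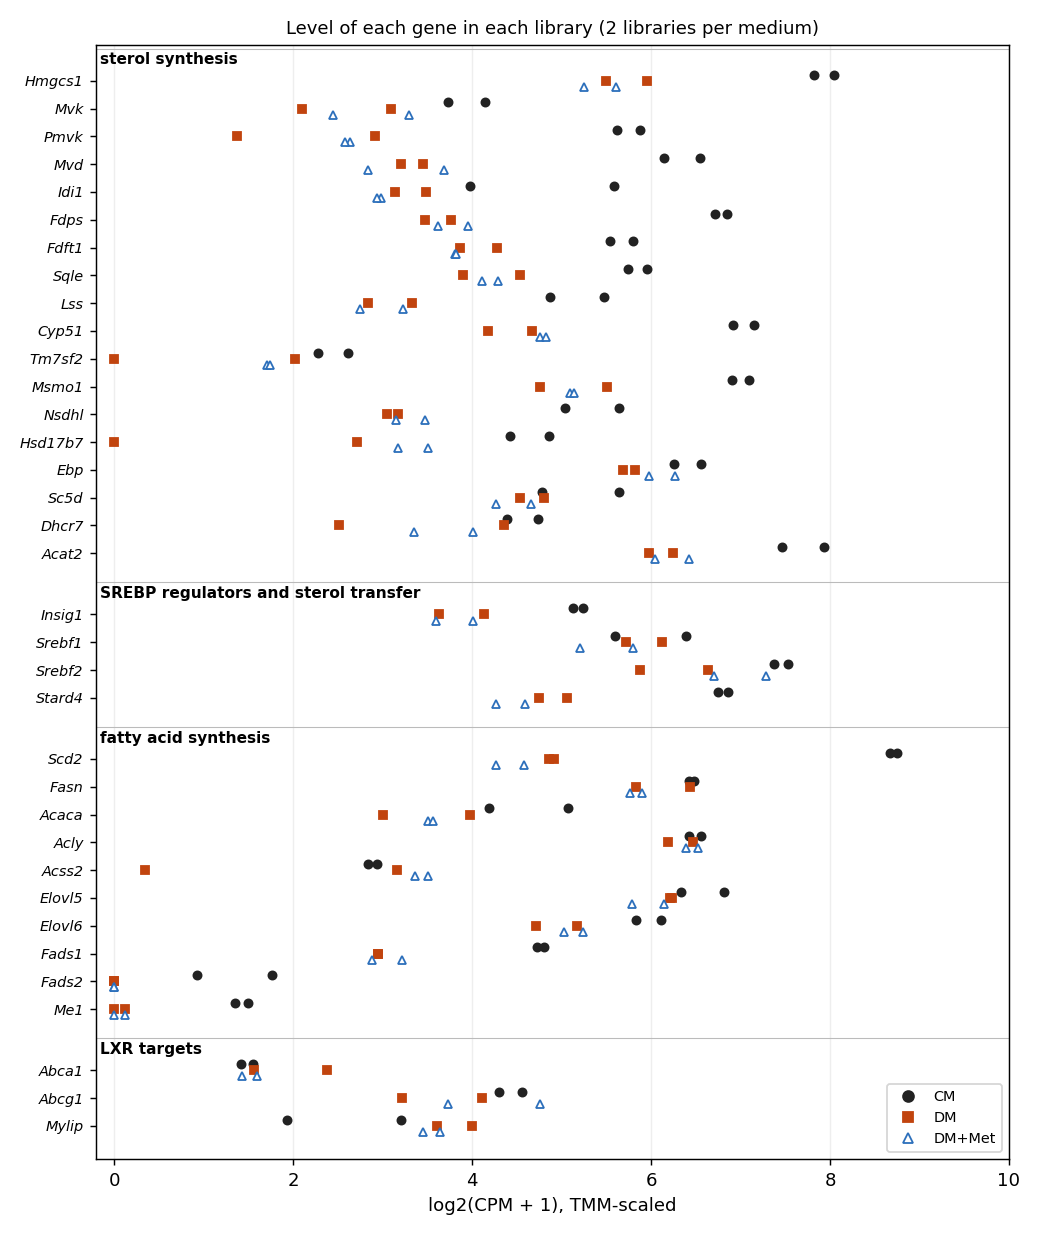
Level of each of the 35 genes, as log2(CPM + 1) on the horizontal axis, in each of the 2 libraries of CM (black circles), DM (orange squares) and DM+Met (open blue triangles), grouped by role. In the sterol synthesis block, both CM points lie to the right of both DM points in 17 of 18 genes, and the DM and DM+Met points lie together in most rows.

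Sterol synthesis was lower in DM than in CM as a group. Of the 18 enzymes, 12 fell, none rose and all 18 had a lower mean, with a median log2 change of -1.75 against 0.07 over all rows tested. Over the 34 genes, 18 fell and 0 rose, where 9.07% of all rows tested were called lower and 7.8% higher. Both DM libraries lay below both CM libraries in 27 of the 34, against 26.2% of all rows. The summed level of the 18 enzymes was 1338 and 1372 CPM (CM), 374 and 344 CPM (DM) and 377 and 380.4 CPM (DM+Met), which is 3.77-fold lower in DM. Limma-voom on the recovered reads called 17 of the 34. Limma called 10 without CM library 1, DM library 1 or DM library 2, 11 without CM library 2 or DM+Met library 2, and 12 without DM+Met library 1.

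The pathway starts with the making of HMG-CoA. Hmgcs1, which makes HMG-CoA from acetyl-CoA and acetoacetyl-CoA, was at 262 and 225 CPM (CM), 43.9 and 60.99 CPM (DM) and 37.1 and 47.7 CPM (DM+Met). The CM libraries were the highest and did not overlap the others, and the log2 change in DM was -2.21 (SE 0.23, adjusted p = 4.61e-04), a 4.64-fold lower mean CPM. Acat2, the thiolase that supplies acetoacetyl-CoA, was at 175 and 242 CPM (CM), 74.8 and 61.99 CPM (DM) and 84.98 and 64.8 CPM (DM+Met). It fell too, with a log2 change of -1.58 (SE 0.23, adjusted p = 0.00222), and the lowest CM value was more than the highest value of either other medium. Its call was lost without DM library 1 or DM library 2 (adjusted p of 0.0507 to 0.0583).

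Mevalonate is then phosphorylated, decarboxylated and turned into isoprenoid units. Pmvk, the phosphomevalonate kinase, was at 47.9 and 57.6 CPM (CM), 6.53 and 1.59 CPM (DM) and 5.20 and 4.96 CPM (DM+Met). It fell with a log2 change of -3.60 (SE 0.55, adjusted p = 0.00281), with DM library 2 the lowest, and with 1 of the DM libraries left out it was -4.37 (library 1 omitted) or -2.83 (library 2 omitted). Mvd, which decarboxylates mevalonate diphosphate, was at 69.8 and 92.7 CPM (CM), 9.89 and 8.21 CPM (DM) and 11.9 and 6.13 CPM (DM+Met), an 8.98-fold lower mean in DM (log2 change -3.02, SE 0.39, adjusted p = 0.00144). Mvk, the kinase of the first of these steps, was at 12.3 and 16.6 CPM (CM), 7.54 and 3.27 CPM (DM) and 4.44 and 8.81 CPM (DM+Met). Its libraries did not overlap between CM and DM, but the change of -1.34 (SE 0.56, adjusted p = 0.127) was not called. Idi1, which isomerizes isopentenyl diphosphate, was at 47.03 and 14.7 CPM (CM), 10.2 and 7.77 CPM (DM) and 6.87 and 6.64 CPM (DM+Met), with CM library 1 standing above the rest. The change of -1.47 (SE 0.55, adjusted p = 0.0933) was not called, but it was without CM library 2, at 0.0414. Fdps, which joins the isoprenoid units into farnesyl diphosphate, was at 104 and 115 CPM (CM), 10.1 and 12.6 CPM (DM) and 11.3 and 14.5 CPM (DM+Met). It fell 9.62-fold in mean CPM, with all 4 DM and DM+Met values close together (log2 change -3.16, SE 0.30, adjusted p = 3.38e-04).

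Squalene synthesis and ring closure moved in the same direction. Fdft1, squalene synthase, was at 54.6 and 45.6 CPM (CM), 13.6 and 18.4 CPM (DM) and 12.98 and 13.1 CPM (DM+Met), with a log2 change of -1.60 (SE 0.33, adjusted p = 0.0102). Sqle, which makes squalene epoxide, was at 52.4 and 60.8 CPM (CM), 22.1 and 13.9 CPM (DM) and 18.5 and 16.3 CPM (DM+Met), with a change of -1.63 (SE 0.32, adjusted p = 0.00917). Lss, which closes the ring to lanosterol, was at 43.4 and 28.2 CPM (CM), 6.12 and 9.01 CPM (DM) and 8.38 and 5.71 CPM (DM+Met), with a change of -2.09 (SE 0.44, adjusted p = 0.0124). In all 3 genes the CM libraries lay above every other library. Their calls depended on the libraries used: Fdft1 was not called without CM library 1, CM library 2, DM library 1 or DM+Met library 2 (0.0502 to 0.0808), Sqle without CM library 1, CM library 2 or DM library 2 (0.0522 to 0.0732), and Lss without CM library 1, DM library 1, DM library 2, DM+Met library 1 or DM+Met library 2 (0.0513 to 0.0985), each value being an adjusted p.

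The methyl groups of lanosterol are removed next. Cyp51, the lanosterol 14-demethylase, was at 141 and 120.1 CPM (CM), 17.1 and 24.5 CPM (DM) and 26.04 and 27.4 CPM (DM+Met), and fell 6.27-fold in mean CPM (log2 change -2.61, SE 0.26, adjusted p = 3.90e-04). Msmo1, the methylsterol oxidase, was at 119 and 136 CPM (CM), 44.4 and 26.1 CPM (DM) and 33.2 and 34.1 CPM (DM+Met), with a change of -1.87 (SE 0.27, adjusted p = 0.00236). Nsdhl, which removes the carboxylated carbon, was at 31.9 and 48.9 CPM (CM), 7.24 and 8.03 CPM (DM) and 10.1 and 7.89 CPM (DM+Met), with a change of -2.23 (SE 0.40, adjusted p = 0.00611). The lowest CM library was above every DM and DM+Met library in these 3 genes. The Nsdhl call was lost without CM library 2, DM library 1 or DM library 2 (adjusted p of 0.0522 to 0.0607). Hsd17b7, the ketosteroid reductase of the same complex, was at 28.02 and 20.5 CPM (CM), 0 and 5.56 CPM (DM) and 8.04 and 10.3 CPM (DM+Met). It was at 0 reads in DM library 1, so its log2 change of -3.29 (SE 0.78, adjusted p = 0.0198) rests in part on that library. Without it the change was -1.93 and the call was lost, as it was without CM library 1, CM library 2 or either DM+Met library. With both DM libraries kept, the Hsd17b7 call was also lost by limma-voom, with a pseudocount of 0.1, without the filter, without the trend and with the 2 media alone. In all it was lost in 10 of 16 alternatives.

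Of the genes of the remaining steps, none was called in DM. Ebp, the sterol isomerase, was at 75.6 and 92.96 CPM (CM), 55.7 and 50.6 CPM (DM) and 62.1 and 76.2 CPM (DM+Met), and Sc5d, the desaturase, at 48.7 and 26.4 CPM (CM), 22.2 and 26.9 CPM (DM) and 24.3 and 18.3 CPM (DM+Met). Dhcr7, which reduces 7-dehydrocholesterol, was at 19.9 and 25.6 CPM (CM), 19.5 and 4.68 CPM (DM) and 9.21 and 15.1 CPM (DM+Met), with 1 DM library close to CM. Their log2 changes were -0.65 (SE 0.22, adjusted p = 0.0687), -0.53 (SE 0.36, adjusted p = 0.336) and -1.13 (SE 0.59, adjusted p = 0.215). Tm7sf2, a sterol reductase, was read little, with 45 and 30 reads (CM), 30 and 0 reads (DM) and 27 and 28 reads (DM+Met). With DM library 2 at 0 the change was -1.44 (SE 0.71, adjusted p = 0.195). It was -0.42 without that library and, without DM library 1, -2.45 and called (adjusted p = 0.0494).

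**Figure D2:**
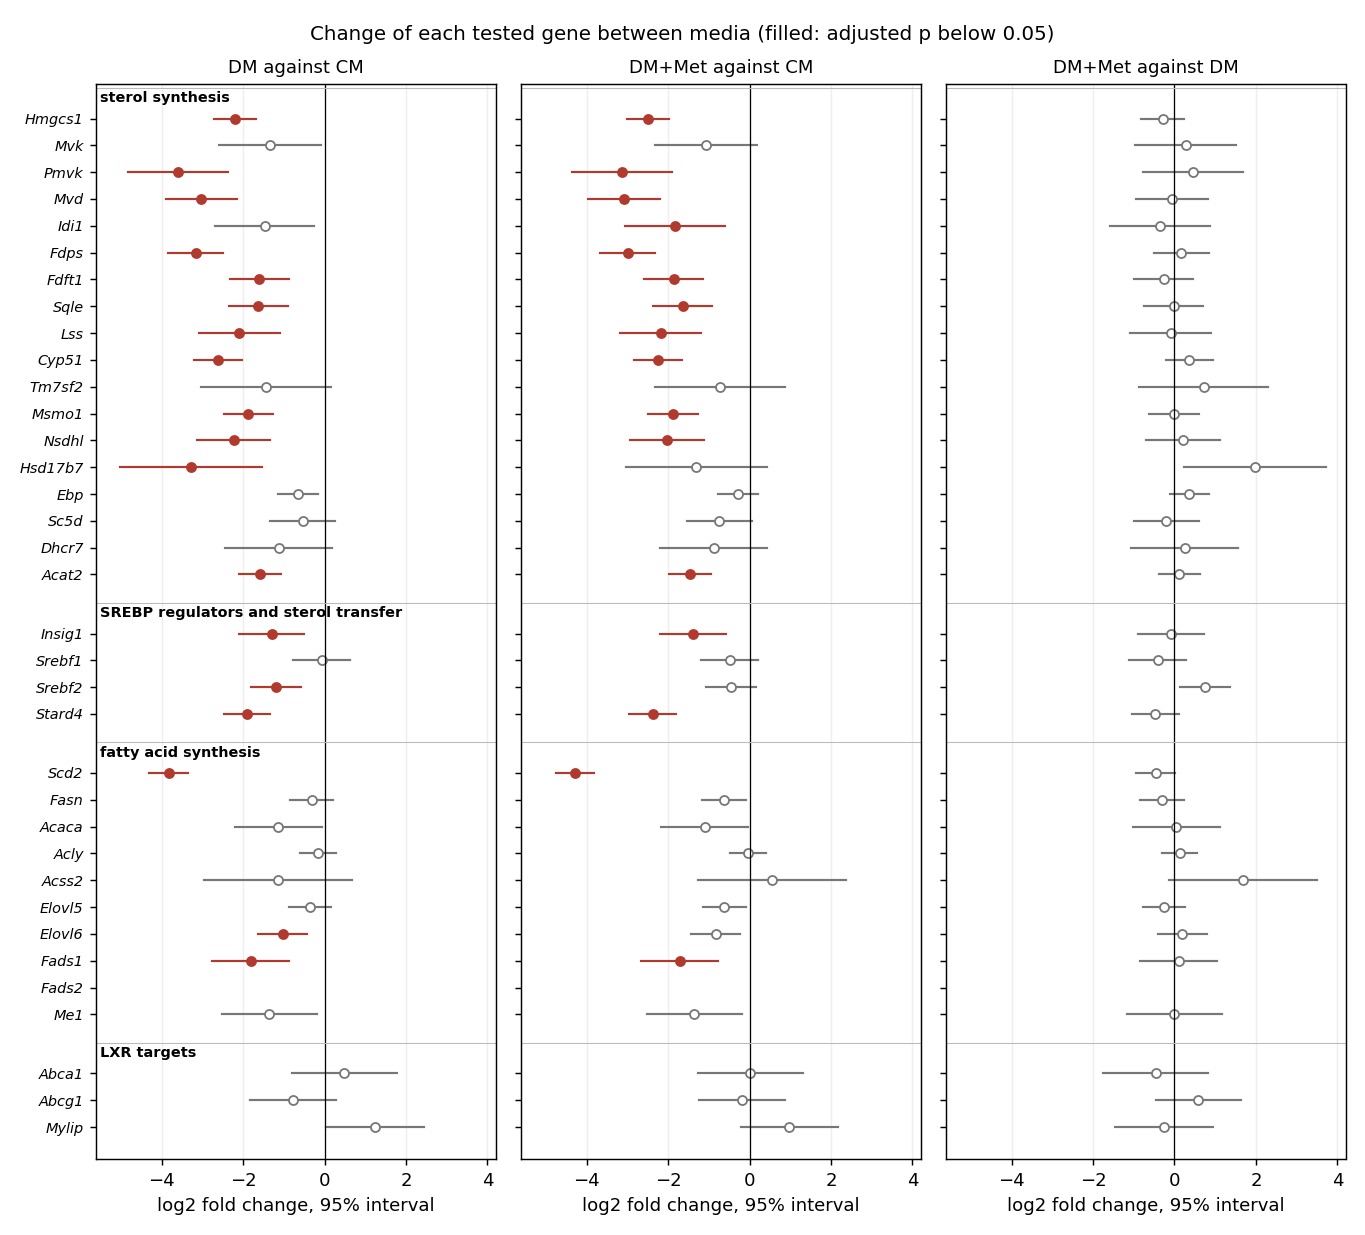
Log2 fold change (points) with 95% interval (lines) of the 34 tested genes in DM against CM, DM+Met against CM and DM+Met against DM, from the limma fit. Filled points have an adjusted p below 0.05, and there are 18, 16 and 0 of them, all to the left of 0.

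Of the 4 genes that regulate the pathway or move sterol, 3 fell in DM. Insig1, the endoplasmic reticulum protein that retains SREBPs and is itself an SREBP target, was at 34.04 and 36.6 CPM (CM), 16.5 and 11.4 CPM (DM) and 15.1 and 11.1 CPM (DM+Met), and it fell (log2 change -1.30, SE 0.36, adjusted p = 0.0357). Stard4, which carries cholesterol between membranes, was at 107 and 115 CPM (CM), 25.8 and 32.3 CPM (DM) and 18.2 and 23.1 CPM (DM+Met), a log2 change of -1.91 (SE 0.26, adjusted p = 0.00164). Srebf2 was at 165 and 184 CPM (CM), 98.4 and 57.5 CPM (DM) and 103 and 155 CPM (DM+Met), with the order CM, DM+Met, DM and no overlap between media, and it fell in DM (log2 change -1.20, SE 0.28, adjusted p = 0.0174). Srebf1 was at 82.8 and 47.5 CPM (CM), 68.5 and 51.8 CPM (DM) and 54.8 and 35.9 CPM (DM+Met). All its groups overlapped, with a log2 change of -0.07 (SE 0.32, adjusted p = 0.898) that turned to 0.32 without CM library 1 and to 0.12 without DM library 2. The Insig1 and Srebf2 calls were each lost when any 1 of the 6 libraries was left out, with adjusted p of 0.0671 to 0.125 and 0.0565 to 0.147. The Stard4 call held in all 17 alternatives. The median log2 change of the 4 was -1.25, and their summed level was 388 and 383 CPM (CM), 209 and 153 CPM (DM) and 191 and 226 CPM (DM+Met).

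Fatty acid synthesis was uneven, with most of the group's summed difference in a single desaturase. The 10 genes summed to 826 and 798 CPM (CM), 307 and 302 CPM (DM) and 285 and 289.8 CPM (DM+Met). Scd2, a stearoyl-CoA desaturase that makes monounsaturated fatty acids, was at 406 and 429 CPM (CM), 29.1 and 27.9 CPM (DM) and 22.9 and 18.2 CPM (DM+Met). It alone made up 406 and 429 CPM of the CM sums, and its mean CPM was 14.7-fold lower in DM (log2 change -3.83, SE 0.21, adjusted p = 1.62e-05), the smallest adjusted p of the 34 genes. Both CM libraries lay far above the 4 others, and the call held in all 17 alternatives. Of the 9 tested genes 3 fell and 0 rose, with a median log2 change of -1.14.

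The other 2 that fell act on long chains. Elovl6, which lengthens palmitate, was at 68.2 and 55.7 CPM (CM), 25.2 and 34.95 CPM (DM) and 31.6 and 36.9 CPM (DM+Met), and Fads1, the delta-5 desaturase of polyunsaturated fatty acids, at 26.9 and 25.5 CPM (CM), 6.73 and 6.71 CPM (DM) and 6.37 and 8.31 CPM (DM+Met). In both, the CM libraries were highest without overlap, with log2 changes of -1.03 (SE 0.27, adjusted p = 0.0286) and -1.81 (SE 0.42, adjusted p = 0.018). Each call was lost when any 1 library was left out, with adjusted p of 0.0536 to 0.15 for Elovl6 and 0.0583 to 0.086 for Fads1. Fads2, the delta-6 desaturase, had 21 and 7 reads (CM), 0 and 0 reads (DM) and 0 and 0 reads (DM+Met). Against the floor of 3 reads per library, it was at least 5.37-fold lower in DM and at least 6.53-fold lower in DM+Met, with no test. These bounds depend on CM library 1, and without it they were 2.93 and 3.56.

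The other 6 tested genes, among them the enzymes at the head of fatty acid synthesis and an elongase, were not called. Acly, which makes cytosolic acetyl-CoA from citrate, was at 85.04 and 92.8 CPM (CM), 72.01 and 87.8 CPM (DM) and 90.96 and 83.04 CPM (DM+Met), and Fasn, the fatty acid synthase, at 84.98 and 88.3 CPM (CM), 85.8 and 55.9 CPM (DM) and 58.5 and 53.5 CPM (DM+Met). The media overlapped for both in DM against CM, and the log2 changes were -0.16 (SE 0.20, adjusted p = 0.619) and -0.32 (SE 0.24, adjusted p = 0.394), with 95% intervals of -0.60 to 0.28 and -0.85 to 0.21. Acaca, the acetyl-CoA carboxylase that makes malonyl-CoA, was at 32.7 and 17.3 CPM (CM), 7.04 and 14.8 CPM (DM) and 10.4 and 10.8 CPM (DM+Met), with both DM libraries below both CM libraries and a change of -1.14 (SE 0.48, adjusted p = 0.13). Elovl5, an elongase of polyunsaturated chains, was at 112 and 79.9 CPM (CM), 72.9 and 74.1 CPM (DM) and 54.02 and 69.7 CPM (DM+Met), with a change of -0.36 (SE 0.23, adjusted p = 0.319). Acss2, which makes acetyl-CoA from acetate, was at 6.15 and 6.66 CPM (CM), 7.96 and 0.265 CPM (DM) and 10.4 and 9.24 CPM (DM+Met), and the DM libraries disagreed. Its change of -1.14 (SE 0.81, adjusted p = 0.37) became 0.28 without DM library 2. Me1, the cytosolic malic enzyme, had 16 and 12 reads (CM), 0 and 1 reads (DM) and 0 and 1 reads (DM+Met), all DM and DM+Met libraries being under the floor of 3 reads (log2 change -1.36, SE 0.52, adjusted p = 0.103). It was called in DM against CM in 2 of 16 alternatives.

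The ratio of reads of a pair of genes within a library does not depend on how the libraries are scaled. For 6 pairs chosen after the values were seen, each a gene that fell over one that was not called, the ratios are given as a description, in which that choice fixes part of the order. Scd2 to Fasn was 4.78 and 4.86 (CM), 0.339 and 0.499 (DM) and 0.391 and 0.341 (DM+Met). Hmgcs1 to Fasn was 3.09 and 2.55 (CM), 0.512 and 1.09 (DM) and 0.635 and 0.892 (DM+Met), and Fdps to Ebp was 1.38 and 1.23 (CM), 0.181 and 0.250 (DM) and 0.182 and 0.191 (DM+Met). In all 3 pairs both CM libraries were above the 4 others, with no overlap. The remaining pairs were in the same order, with Acat2 to Acly at 2.05 and 2.61 (CM), 1.04 and 0.706 (DM) and 0.935 and 0.781 (DM+Met), Fads1 to Elovl5 at 0.241 and 0.319 (CM), 0.0923 and 0.0906 (DM) and 0.118 and 0.119 (DM+Met), and Insig1 to Srebf1 at 0.411 and 0.771 (CM), 0.241 and 0.220 (DM) and 0.275 and 0.308 (DM+Met).

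**Figure D3:**
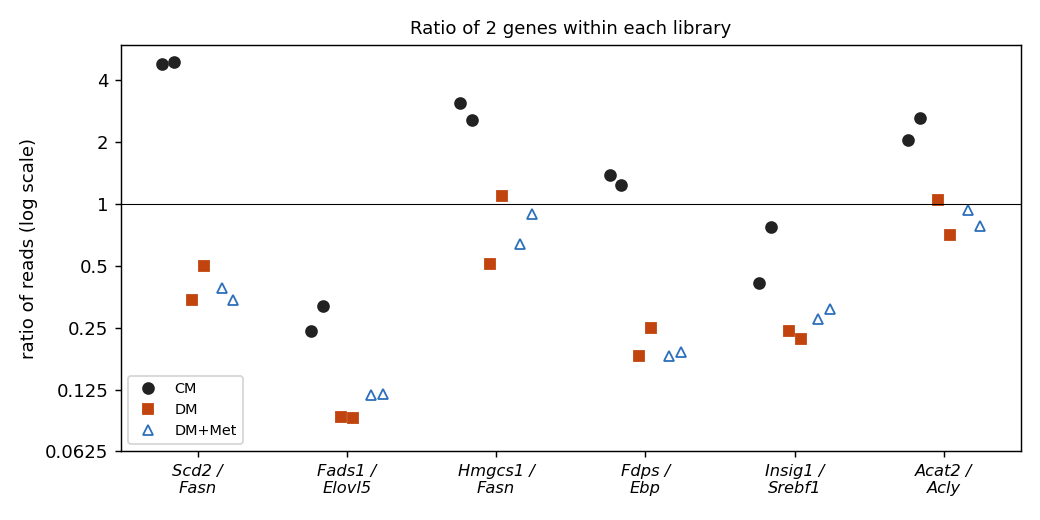
Ratio of the reads of 2 genes within each library on a log scale, for 6 pairs chosen after the values were seen, with CM as black circles, DM as orange squares and DM+Met as open blue triangles. In each pair both CM points lie above the 4 others, with Scd2 to Fasn at 4.78 and 4.86 in CM against 0.339 to 0.499.

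The 3 LXR targets were not called in either direction in DM (1 at an unadjusted p below 0.05 and 0 by limma-voom). Abca1, which exports cholesterol to apolipoproteins, was read at 17 and 13 reads (CM), 41 and 22 reads (DM) and 24 and 20 reads (DM+Met), and its level was 1.94 and 1.67 CPM (CM), 4.18 and 1.94 CPM (DM) and 2.01 and 1.68 CPM (DM+Met), with DM library 1 above the other libraries and DM library 2 just above the higher CM library. Its log2 change in DM was 0.48 (SE 0.58, adjusted p = 0.606). Abcg1, a cholesterol exporter as well, was at 22.6 and 18.7 CPM (CM), 8.26 and 16.2 CPM (DM) and 26.1 and 12.3 CPM (DM+Met), with a change of -0.77 (SE 0.47, adjusted p = 0.29). Mylip, the ubiquitin ligase that targets lipoprotein receptors, was at 8.20 and 2.82 CPM (CM), 11.2 and 15.01 CPM (DM) and 9.97 and 11.5 CPM (DM+Met), with both DM libraries above both CM libraries and a change of 1.24 (SE 0.54, adjusted p = 0.142). Their summed level overlapped between media, at 32.7 and 23.2 CPM (CM), 23.7 and 33.2 CPM (DM) and 38.1 and 25.4 CPM (DM+Met). The median log2 change of the 3 was 0.48 in DM. The 95% intervals of -0.80 to 1.77 for Abca1 and -1.82 to 0.28 for Abcg1 include changes in either direction, and that for Mylip, 0.04 to 2.44, lies above 0 before adjustment over all rows.

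DM+Met was compared with CM in the same way. Of the 34 genes, 16 fell and 0 rose, where 8.36% of all rows tested were called lower and 6.92% higher, and limma-voom called 16, with Elovl6 in place of Idi1. Both DM+Met libraries lay below both CM libraries in 27 of the 34, against 28.7% of all rows. The median log2 change was -1.84 over the 18 sterol enzymes, -0.94 over the 4 regulators, -0.83 over the 9 fatty acid genes tested and 0.02 over the LXR targets. The comparison shares its CM libraries with the one above, so a likeness of the 2 is in part built in.

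By role, 12 of 18 sterol enzymes fell in DM+Met. The changes were -2.50 for Hmgcs1, -2.995 for Fdps, -3.09 for Mvd and -2.24 for Cyp51 (adjusted p of 1.83e-04, 2.73e-04, 9.69e-04 and 5.93e-04). Among those fallen was Idi1, -1.83 (SE 0.55, adjusted p = 0.04995), which was just past the threshold. Its call was lost in 12 of 17 alternatives, limma-voom and both scalings by library totals among them. It was also lost without CM library 1, DM library 1, DM library 2, DM+Met library 1 or DM+Met library 2. Its change was -1.02 without CM library 1 and -2.63 without CM library 2. Hsd17b7 was not called, at -1.30 (SE 0.78, adjusted p = 0.3). The remaining 7 that fell, with -3.14 for Pmvk, -2.18 for Lss, -2.03 for Nsdhl, -1.89 for Msmo1, -1.86 for Fdft1, -1.65 for Sqle and -1.46 for Acat2, had adjusted p of 0.00176 to 0.00997. Each of these 7 lost its call without 1 or both DM+Met libraries, and Pmvk, Fdft1, Sqle, Lss and Nsdhl also without 1 or both CM libraries (adjusted p of 0.0577 to 0.153). By library left out, 6 and 7 of the 34 genes were called without DM+Met library 2 and without DM+Met library 1, 9 without CM library 1 and 11 without CM library 2.

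Of the regulators, Stard4 and Insig1 fell, with log2 changes of -2.38 (SE 0.26, adjusted p = 3.85e-04) and -1.38 (SE 0.36, adjusted p = 0.0307), and Srebf2 was not called, at -0.46 (SE 0.28, adjusted p = 0.304). The Insig1 call was lost without CM library 1, CM library 2, DM+Met library 1 or DM+Met library 2 (0.114 to 0.267). Of the fatty acid genes, Scd2 fell 20.3-fold in mean CPM (log2 change -4.29, SE 0.21, adjusted p = 1.01e-05). Fads1 fell as well (log2 change -1.71, SE 0.42, adjusted p = 0.0229), a call that was lost without CM library 1, CM library 2, DM+Met library 1 or DM+Met library 2 (0.079 to 0.216). Elovl6, Elovl5 and Fasn were below CM in both libraries but were not called, at -0.83 (SE 0.27, adjusted p = 0.0655), -0.61 (SE 0.23, adjusted p = 0.105) and -0.62 (SE 0.24, adjusted p = 0.11). Elovl6 was called by limma-voom (adjusted p = 0.04735), and Fasn by limma without DM library 2 (adjusted p = 0.0493), which enters only the shared variance. Acly was at -0.03 (SE 0.20, adjusted p = 0.936), and Acaca at -1.10 (SE 0.48, adjusted p = 0.155). Acss2 had the only higher mean of these genes, at 0.55 (SE 0.81, adjusted p = 0.699), with both DM+Met libraries above both CM libraries. Me1, at -1.36 (SE 0.52, adjusted p = 0.11), was called in 5 of 16 alternatives, those without DM library 1 (adjusted p = 0.0381) and without DM library 2 (0.0407) among them.

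The addition of methionine to DM gave 0 called genes. Of the 34, 17 had a lower and 17 a higher mean in DM+Met, with a median log2 change of 0.02 against 0.01 over all rows, and the smallest adjusted p was 0.425. At an unadjusted p below 0.05 there were 2 genes, and limma-voom called 0. Few rows were called anywhere in this comparison, 0.0157% lower and 0.0392% higher, so the count of 0 says little about these genes in particular.

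The 2 genes were Srebf2 and Hsd17b7, at 0.74 (SE 0.28, adjusted p = 0.425) and 1.98 (SE 0.78, adjusted p = 0.443). The Srebf2 values of both DM+Met libraries were above both DM libraries. For Hsd17b7 the difference was 0.63 without DM library 1, the library at 0 reads. Acss2 differed by 1.68 (SE 0.81, adjusted p = 0.549), which became 0.27 without DM library 2. Scd2 and Stard4 were lower in both DM+Met libraries than in both DM libraries, at -0.46 (SE 0.21, adjusted p = 0.529) and -0.47 (SE 0.26, adjusted p = 0.602), and were not called. Insig1 was at -0.08 (SE 0.36, adjusted p = 0.973) and Srebf1 at -0.41 (SE 0.32, adjusted p = 0.743). The 3 LXR targets were at -0.46 (SE 0.58, adjusted p = 0.867) for Abca1, 0.59 (SE 0.47, adjusted p = 0.757) for Abcg1 and -0.26 (SE 0.54, adjusted p = 0.932) for Mylip, each with overlapping libraries.

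The intervals show what size of difference these libraries could have missed. For Hmgcs1 the 95% interval of the difference between DM+Met and DM was -0.81 to 0.22 on the log2 scale, for Fdps -0.51 to 0.85, for Cyp51 -0.22 to 0.95 and for Scd2 -0.93 to 0.01. Every bound of these 4 intervals is closer to 0 than that gene's change in DM against CM. This did not hold for all genes that fell in DM. The interval was 0.13 to 1.36 for Srebf2, whose change in DM was -1.20. It was 0.24 to 3.72 for Hsd17b7, whose change in DM was -3.29. For Pmvk the interval was -0.77 to 1.69, and for Lss -1.08 to 0.90. The summed level of the 18 sterol enzymes was 374 and 344.1 CPM in DM and 376.9 and 380.4 in DM+Met, all well below the CM level of 1338 and 1372. These signs depend on scaling. With library totals in place of TMM factors the median of all rows moved to 0.34, and 5 of the 34 genes had a lower mean in DM+Met. With library totals that left out Rn45s, the ribosomal RNA precursor, the median was -0.02 and 17 of the 34 were lower. Rn45s took 37.2 and 38.3% of reads in DM, and 15.5 and 20.1% in DM+Met.

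Further genes of lipid metabolism were read from lists of related function. The counts below stand beside 9.07% of all rows tested called lower and 7.8% called higher in DM against CM. In DM+Met against CM these shares were 8.36% and 6.92%. Of 13 tested genes in a list of other sterol and isoprenoid genes, 4 fell and 1 rose in DM. Tmem97, a sterol-responsive membrane protein, was at 44.5 and 48.1 CPM (CM), 4.59 and 5.65 CPM (DM) and 4.61 and 5.71 CPM (DM+Met), a log2 change of -2.96 (SE 0.42, adjusted p = 0.00209). Pdss1, which makes the side chain of coenzyme Q, rose by 1.95 (SE 0.56, adjusted p = 0.0403), with both CM libraries lowest. Of 20 other fatty acid and lipid synthesis genes, 6 fell and 0 rose. They included Lpin1, a phosphatidate phosphatase, at -1.63 (SE 0.27, adjusted p = 0.00428), and Pcyt2, of phosphatidylethanolamine synthesis, at -1.39 (SE 0.32, adjusted p = 0.0184). The medians of the tested genes of these lists were -0.64 and -0.74. In DM+Met against CM, 5 fell and 0 rose in the first list and 6 fell and 0 rose in the second.

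The proteins that retain, escort and cleave SREBPs form a separate list. Of its 10 tested genes, 0 fell and 1 rose in DM (2 at an unadjusted p below 0.05 and 1 by limma-voom). That 1 is close to the share of all rows called higher in DM, 7.8%, where 9.07% were called lower. Scap, which escorts SREBPs to the Golgi, was at 25.96 and 10.9 CPM (CM), 52.4 and 40.7 CPM (DM) and 45.7 and 44.2 CPM (DM+Met), with CM lowest, and rose by 1.40 (SE 0.38, adjusted p = 0.0319) in DM and by 1.36 (SE 0.38, adjusted p = 0.0384) in DM+Met. Without CM library 2 these changes were 0.81 and 0.77, and without CM library 1 they were 1.99 and 1.95. In DM+Met against CM, 1 gene of this list fell. It was Insig2, the second Insig protein, named after its values were seen, at 29.5 and 23.7 CPM (CM), 11.3 and 14.8 CPM (DM) and 5.20 and 4.45 CPM (DM+Met) (log2 change -2.24, SE 0.41, adjusted p = 0.00624). Among 15 tested LXR targets and genes of cholesterol storage or egress, 4 fell and 1 rose in DM, and 2 fell in DM+Met. Scarb1, the receptor of high-density lipoprotein, fell (log2 change -2.13, SE 0.45, adjusted p = 0.012). With only 1 DM library in the fit it was -1.43 (library 1) or -2.83 (library 2). Pltp, a phospholipid transfer protein, fell too (log2 change -1.25, SE 0.26, adjusted p = 0.0118), while Smpdl3a, a phosphodiesterase, rose by 1.67 (SE 0.41, adjusted p = 0.0224). The LXR genes themselves were not called, with Nr1h2 at 0.38 (SE 0.27, adjusted p = 0.359) and Nr1h3 at -0.52 (SE 0.63, adjusted p = 0.613). Of the changes named from these 4 lists, that of Tmem97 in DM was called whichever library was left out. Those of Pdss1 and Pltp were lost without any 1 of the 6, and those of Lpin1, Pcyt2, Scap, Insig2, Scarb1 and Smpdl3a without 3 to 5 of them (adjusted p of 0.0509 to 0.274 where lost). Between DM+Met and DM, 0 genes of these 4 lists were called by limma or by limma-voom, with 0, 3, 2 and 2 at an unadjusted p below 0.05 in the order given here.

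Proliferation genes were lower alongside. Of 16 such genes 15 fell in DM and 14 in DM+Met, and their summed level was 2594 and 2417 CPM (CM), 484 and 537 CPM (DM) and 452 and 474 CPM (DM+Met), 4.91-fold lower in DM and 5.41-fold in DM+Met. Mki67, a marker of cycling cells, was at 297 and 299 CPM (CM), 52.7 and 80.8 CPM (DM) and 33.1 and 41.2 CPM (DM+Met), a log2 change of -2.17 (SE 0.23, adjusted p = 5.54e-04) in DM and -2.98 (SE 0.23, adjusted p = 8.96e-05) in DM+Met. Of 7 T cell markers found, 1 fell and 2 rose in DM and 1 rose in DM+Met, and their sum was 1438 and 1503 CPM (CM), 1735 and 1371 CPM (DM) and 1481 and 1546 CPM (DM+Met). The 15 myeloid markers summed to 161.6 to 197.7 CPM in CM, 167.9 to 260.2 in DM and 247.5 to 277.6 in DM+Met. Their reads were uneven, with Cst3 at 854 to 2000 reads and most of the sum, Fcer1g at 115 to 363 and Adgre1 of macrophages at 0 to 28. Of these markers 1 rose in DM (0 by limma-voom), while 0 were called in DM+Met (3 at an unadjusted p below 0.05 and 0 by limma-voom). The 1 was Lyz2, at 3 and 15 reads (CM) and 77 and 85 reads (DM), with CM library 1 at the floor. Its call was kept only when CM library 2 was left out, and lost without any other library. In DM, 10 of the 15 had a higher mean and 5 a lower one. Tyrobp was among the 5, at -2.44 (SE 0.79, adjusted p = 0.062) with 0 reads in DM library 1. Of 6 tested B cell markers 0 were called in DM (1 at an unadjusted p below 0.05 and 0 by limma-voom) and 1 fell in DM+Met. Of 6 tested CD8 T and NK cell markers 1 fell in each, Cd8a, and 1 rose in DM+Met, Klrb1c. Both Cd8a calls were lost when any 1 of the 6 libraries was left out. The same held for the T cell calls of Cd3g and Cd28 in DM. That of Cd5 (T cell) in DM was lost without CM library 1 or CM library 2. For DM+Met, the calls of Cd5, Cd22 (B cell) and Klrb1c were lost when any 1 CM or DM+Met library was left out. Of all rows tested, 9.07% were called lower and 7.8% higher for DM against CM. With DM+Met these shares were 8.36% and 6.92%. The part of cell division, and of the mixture of cells, in the lower lipid genes was not tested.

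**Figure D4:**
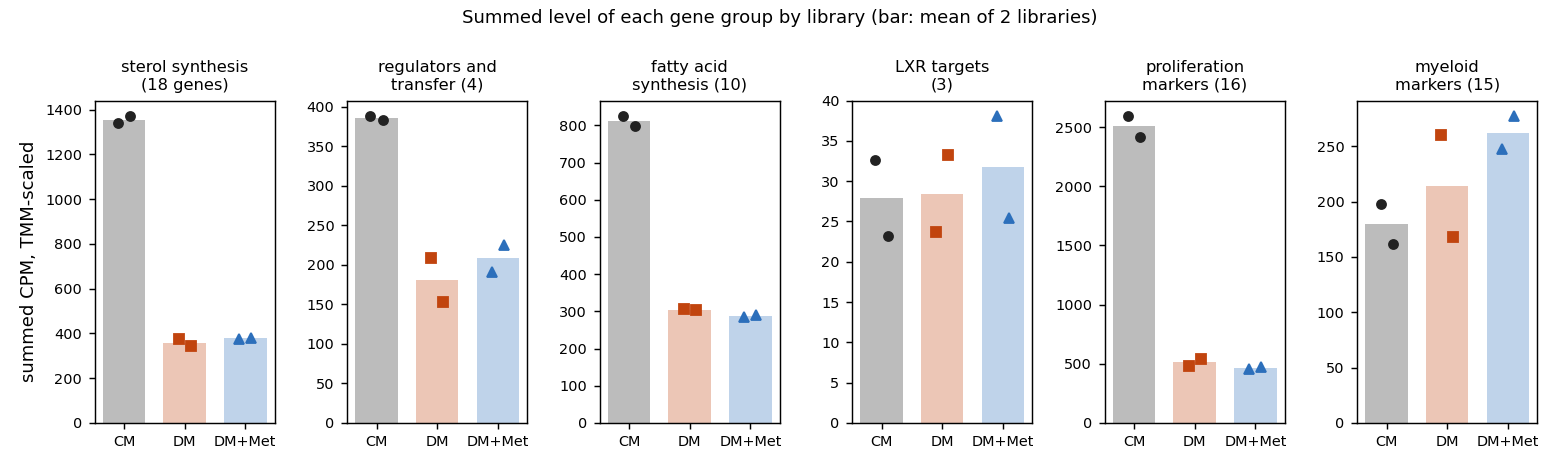
Summed CPM per library for each group of genes and for proliferation and myeloid markers, with bars at the mean of the 2 libraries and points for the libraries, each panel on its own axis from 0. Sterol synthesis, fatty acid synthesis and proliferation are lower in DM and DM+Met than in CM, while the 3 LXR targets overlap between media, at 23.18 to 32.69 CPM in CM and 23.66 to 38.11 in the other media.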

How the data were processed

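CD4 T cell RNA was sequenced with a 3′-end kit (QuantSeq), which reads each transcript near its 3′ end, so that counts do not grow with its length. The deposited values are on a log2 scale: CPM with TMM-scaled library sizes, with 1 added, rounded by the authors to 3 decimals. The base and the added 1 were read from the equal steps of the back-transformed values. The submitters' processing notes name Bowtie2, bedtools and build mm10. The counting tool, annotation and use of strand are not given in the sources used here, so overlapping or antisense genes cannot be separated. The steps gave whole reads within 0.1 for at least 99.776% of values of up to 300 reads. Depth was 8504742 to 12377285 reads per library, and a count of 0 allows up to 3 reads, a log2 value of 0.323 to 0.469. Floors cover counting error only. The 95% intervals of log2 changes are from limma. They rest on the spread between libraries, drawn for each gene toward that of genes at a similar level. The symbols of 44 rows repeat an earlier row, and none of these is among the 35 genes. The libraries of a medium differed by more than sampling noise (chi-square per degree of freedom of 18.2 to 35.9).

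Rows with at least 0.946 CPM (10 reads at the median depth) in 2 libraries and 15 reads in all were tested, which left 12770. The 3 media entered 1 limma fit (limma 3.58.1 in R 4.3.3, with eBayes and its trend option, 3 residual and 6.87 prior degrees of freedom) without covariates, and p-values were adjusted by Benjamini-Hochberg over all rows, and called below 0.05. All are two-sided and from limma. Tables were made with Python 3.11.15, pandas 2.3.3 and scipy 1.17.1. Fold changes on this scale understate the change of genes with few reads. Libraries with the same number did not deviate together (correlations of -0.0247, 0.00476 and -0.0303), so they were not paired.

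The genes, the lists and the rules were chosen with earlier results of these data known. Values were to be given for each of the 35 genes, for some genes of related function and for up to 3 called genes of each related list. Some genes of that rule are not reported here. Alternatives were the scaling, the filter, the pseudocount, limma-voom, the trend, a robust prior, the 2 media alone, a replicate block and leaving out each library. Promoter sequences and starts are from RefSeq (GRCm38.p6).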

Additional observations from a re-analysis of the deposited data

How the results depend on the processing

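In DM against CM, 15 to 18 of the genes were called under the 10 alternatives that kept all libraries (18 reported) and 13 with CM and DM fitted alone, and 8 of the 18, Hmgcs1, Pmvk, Mvd, Fdps, Cyp51, Msmo1, Stard4 and Scd2, were called in all 17 alternatives. Leaving out 1 library gave 10 to 12 calls. In DM+Met against CM, 14 to 16 were called with all libraries (16 reported), 17 with these 2 media fitted alone and 6 to 17 with 1 left out, and 6 of the 16 in all 17. No gene that was called changed sign. Fewer libraries leave fewer residual degrees of freedom. With a replicate block the counts were 18, 16 and, for DM+Met against DM, 0, as without it. That last count was 0 in all 17. Genes that were not called could change sign, 21 of the 34 in DM+Met against DM under 1 or more alternatives. With library totals, only 5 of the 34 were lower in that comparison, against 17, and of the regulators and LXR targets Insig1 was 0.26 and Mylip 0.081, and Ebp 0.11, Acly 0.36 and Abcg1 0.19 in DM+Met against CM. With library totals that left out Rn45s, the ribosomal RNA precursor that took 15.5 to 38.3% of reads, Srebf1 was 0.0803 in DM against CM and Acly 0.089 in DM+Met against CM. With 1 library left out, the ranges in DM against CM were -0.47 to 0.32 for Srebf1 and -2.55 to 0.28 for Acss2. They were -0.33 to 0.17 for Insig1 in DM+Met against DM, and in DM+Met against CM -0.10 to 0.0335 for Acly, -0.062 to 0.11 for Abca1 and -0.70 to 0.33 for Abcg1. The median change of the sterol enzymes in DM was -2.06 with a pseudocount of 0.1 and -1.61 with 5, and in DM+Met against CM -1.47 with library totals. That of the fatty acid genes in DM was -0.47 with a pseudocount of 5. With 2 libraries per medium no library could be tested as an outlier, and genes at a few reads, Me1, Fads2 and Tm7sf2 among them, were limited by depth.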

Other observations

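Further lipid genes, named here after their values were seen, also differed between media. Lbr, the lamin B receptor, which has sterol reductase activity, was at 348 and 339 CPM (CM), 138 and 168 CPM (DM) and 163 and 146 CPM (DM+Met), with both CM libraries highest, and fell in DM (limma log2 change -1.17, SE 0.16, adjusted p = 0.00199) and in DM+Met (-1.15, SE 0.16, adjusted p = 0.00165). Elovl1, which lengthens saturated chains, was at 138 and 115 CPM (CM), 53.8 and 47.4 CPM (DM) and 47.1 and 56.8 CPM (DM+Met) and fell as well (-1.31, SE 0.21, adjusted p = 0.00395 in DM). Slc25a1, which exports citrate from mitochondria, fell in DM (-1.33, SE 0.36, adjusted p = 0.0332), as did Fabp5, a fatty acid binding protein (-0.98, SE 0.24, adjusted p = 0.022). In DM+Met Slc25a1 fell (-1.35, SE 0.36, adjusted p = 0.0343), and Fabp5 was not called, at -0.64 (SE 0.24, adjusted p = 0.0997). The Slc25a1 calls were lost when any 1 library was left out, and that of Fabp5 in DM when any but DM library 1 was left out (adjusted p of 0.0584 to 0.254). Lbr in DM was called whichever library was left out and, in DM+Met, was lost without DM+Met library 2 (0.065), and Elovl1 in DM was lost without CM library 1 (0.0574).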
